A study of Mus musculus with 12 samples.

Results

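The cells described here were sublining fibroblasts of the mouse hind-limb joint that carried RNA of Ccl11, Smoc2 and genes found with them. They were chosen by a rule on detected genes: more than 500 and fewer than 5000 genes in all, at least 4 of 7 fibroblast genes (Gsn, Fbln1, Serpinf1, Lum, Dcn, Pdpn and Pdgfra), at least 4 of the 7 genes Ccl11, Hmcn2, Hsd11b1, Dpep1, Smoc2, Abca8a and Gpc3, and no more than 2 of the 6 genes Pi16, Dpp4, Stmn4, Efhd1, Wnt2 and Cadm3. A gene was detected in a cell when it had at least 1 unique molecular identifier (UMI, a tag that marks 1 captured RNA molecule). Of 21042 deposited cells, 20213 met the limits on genes, 16430 of these met the fibroblast criterion and 712 met the whole rule, which was 4.33% of the fibroblasts and 3.38% of the deposited cells. These 712 cells are called the selected cells.

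The joints came from wild-type male C57BL/6 mice, 8 to 10 weeks old by the study's methods, in which serum transfer-induced arthritis had been started by an intravenous injection of 100 µl of K/BxN serum. This serum holds autoantibodies that set off a joint inflammation which later subsides on its own. Groups of 3 libraries were labelled rest, from day 0 without serum, peak, from day 7 to 9 after it, resolving, from day 15, and resolved, taken on day 22. A library pooled live CD45-negative cells from the joints of 3 animals, so that haematopoietic cells had been sorted away, and was read from the 3′ end of transcripts with version 2 of the 10x Genomics chemistry. The 12 libraries were the replicates in every test, and nothing in the labels tied a replicate number to a shared day or litter.

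Fibroblasts of the synovium fall into a lining layer that faces the joint space and makes lubricin, and a sublining layer that forms the supporting tissue around vessels, fat and nerves. Sublining fibroblasts make collagens, microfibrils and basement membrane, and they release chemokines that draw blood cells into the tissue. Ccl11 codes for eotaxin, a chemokine that attracts eosinophils, and Smoc2 for a secreted calcium-binding matricellular protein. Hsd11b1 codes for the enzyme that regenerates active glucocorticoid inside the cell, Dpep1 for a membrane dipeptidase, Hmcn2 for a hemicentin of the extracellular matrix, Abca8a for a lipid transporter and Gpc3 for a cell-surface heparan sulphate proteoglycan.

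Some facts of the whole series bear on what follows. The libraries held 7.97e+06 to 1.70e+07 UMIs, the median per deposited cell was 5358 UMIs in every library, and no barcode was shared in any of the 66 pairs of libraries. Each library's barcodes carried 1 suffix from 1 to 12, and in the selected cells the library most like a given one, over 4275 genes, had the same label for 1 of 12 libraries and lay in the same run of 3 consecutive suffixes for 5 of 12. Suffixes 1 to 3 belonged to rest replicate 1, peak replicate 1 and resolving replicate 1, suffixes 4 to 6 to resolved replicate 1, rest replicate 2 and peak replicate 2, suffixes 7 to 9 to resolving replicate 2, resolved replicate 2 and rest replicate 3, and suffixes 10 to 12 to peak replicate 3, resolving replicate 3 and resolved replicate 3. The runs were chosen because earlier results of these data had shown libraries alike by suffix and not by label. Tests between runs are thus of a grouping taken from the same data. Values are given both by label and by run of suffixes, in that order of libraries. A run is only what the barcodes carry, and no time point or treatment was attached to it. Whether each matrix was deposited under the right label was not tested, and every value given for rest, peak, resolving or resolved rests on the labels as deposited.

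Of the 712 selected cells, 369 had 4 of the 7 selecting genes, 187 had 5, 119 had 6 and 37 had all 7. None of the 6 excluded genes was detected in 254 of them, 1 in 304 and 2 in 154. Just outside the rule lay 931 fibroblasts with 3 of the selecting genes and 87 with at least 4 of them but 3 excluded genes. Ccl11 was found in 69.6% of the selected cells with 4 selecting genes and in 33.6% of the cells with 3, and Smoc2 in 80.5% and 71.2%. Cells just outside the limit thus still carried RNA of both genes. The 144 fibroblasts that had enough selecting genes and were removed for their Pi16 and Dpp4 genes lay on the same border.

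Of the 7 selecting genes, 2 share a chromosome, Ccl11 (chr11:82057823-82062955, plus strand) and Abca8a (chr11:110025634-110095978, minus strand), in GRCm38 coordinates of the GENCODE annotation. Smoc2 lies at chr17:14279506-14404790 and Dpep1 at chr8:123186242-123201812, both on the plus strand. Hsd11b1 lies at chr1:193221634-193264075 and Gpc3 at chrX:52272426-52613950, both on the minus strand, and Hmcn2 at chr2:31314415-31460738 on the plus strand. The spans are those of whole genes with their introns.

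RefSeq's promoter table (GRCm38.p6) held 5 of the 7 selecting genes, and the 250 bases before the start of transcription were searched on both strands for 4 short motifs: TTCNNNGAA (bound by STAT factors), TGANTCA (AP-1), AGAACA (a half-site of the glucocorticoid receptor) and TATAAA (the TATA box). They were present in 7.18%, 6.87%, 16.2% and 13% of all 27025 promoters. Among the selecting genes, 1 of the 5 promoters held TGANTCA, that of Hmcn2 (chr2:31314082-31314331, plus strand), 95 to 101 bases before the start, and 0 held the others. It is shown with the promoter of Tnc (chr4:64047016-64047265, minus strand), a matrix gene described below that differed widely between libraries and has TATAAA 121 to 126 bases before its start. Capitals mark the match, which is a stretch of letters and no evidence that a factor was bound.
Hmcn2: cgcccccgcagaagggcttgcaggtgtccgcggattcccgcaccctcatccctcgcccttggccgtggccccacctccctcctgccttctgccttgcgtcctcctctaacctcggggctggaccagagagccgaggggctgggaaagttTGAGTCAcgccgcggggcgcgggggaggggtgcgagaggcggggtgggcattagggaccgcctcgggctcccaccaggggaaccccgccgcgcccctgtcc
Tnc: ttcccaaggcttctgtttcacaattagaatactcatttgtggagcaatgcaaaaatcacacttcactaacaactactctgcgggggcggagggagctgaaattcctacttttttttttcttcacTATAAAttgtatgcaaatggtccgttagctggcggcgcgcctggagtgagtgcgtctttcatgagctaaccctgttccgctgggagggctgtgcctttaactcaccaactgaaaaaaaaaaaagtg

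The markers fitted a sublining fibroblast. Ccl11 had a UMI in 80.6% of the selected cells, 7.97% of the other 15718 fibroblasts and 0.845% of the 828 endothelial cells, which should lack it. Smoc2 had one in 87.6%, 40.6% and 1.33%, and Dpep1 in 81.9%, 15.9% and 0.362%. These shares follow from the rule. Some genes outside it gave the same placement: Clec3b, a secreted protein of sublining fibroblasts, had a UMI in 87.8% of the selected cells against 56.1% of the other fibroblasts, Cd34 in 85.8% against 55.5% and Mfap5, a microfibril protein, in 91.7% against 66.9%. They belong to a list of 7 sublining markers, whose levels as a list are given below.

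Lining genes were rare in the selected cells, except for the lubricin gene Prg4. Clic5 had a UMI in 4 of 712 selected cells (0.562%) and in 88.0% of the 641 fibroblasts with at least 3 of the 5 lining genes, and Tspan15 and Htra4 were found in 0.562% and 0.281% of the selected cells. Prg4 was found in 69.1% of them and also in 41.1% of the endothelial cells, a type that should lack it. Ptprc, the CD45 gene, had a UMI in 0 of 712 cells, which by the limit of 3 counts allows a share of up to 0.421%, and the endothelial gene Pecam1 had one in 2.81% against 92.5% of endothelial cells. Pi16, 1 of the genes the rule limited, was still found in 45.2% of the selected cells, against 90.0% of the 1407 fibroblasts with at least 3 of the 6 Pi16 and Dpp4 genes, and Dpp4 in 6.18% against 52.9%.

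**Figure D1:**
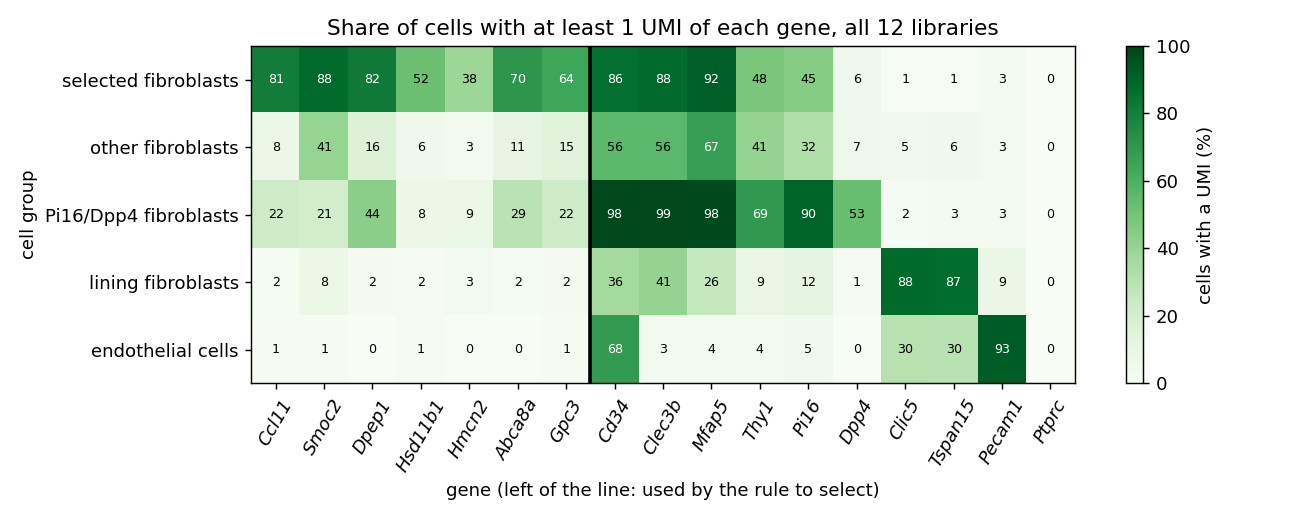
Percent of cells with at least 1 UMI of each gene (columns) in the selected cells, the other fibroblasts, fibroblasts with at least 3 Pi16 and Dpp4 genes, fibroblasts with at least 3 lining genes, and endothelial cells (rows), over all 12 libraries. The 7 genes left of the line chose the selected cells; to its right Cd34, Clec3b and Mfap5 were detected in most selected cells, while Clic5 and Tspan15 were found in 0.562% of them.

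Against the other fibroblasts of the same libraries, the selected cells had more RNA of a set of enzymes, carriers and secreted proteins, and less of cartilage and tendon matrix. Counts were summed over the cells of a kind in each library, scaled to counts per 1e+06 UMIs (CPM), and compared as the mean log2 ratio over 12 libraries with its SD. The same UMIs chose the cells, so the ratios are a description and no test was made. Among the 2741 genes with at least 50 CPM in either group, the mean ratio was over 1 with 1 direction in all 12 libraries for 100 genes (3.65%) and under -1 for 55 (2.01%), and the median over these genes was -0.06. Over all 16039 genes with at least 10 UMIs the counts were 3081 (19.2%) and 103 (0.642%), and the 0.5 UMI added to each sum raises the ratio of genes near 0 in the smaller group. With the added count scaled to the depth of each sum, 141 genes were higher and 539 lower, so that the balance turned.

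The selecting genes themselves differed by 2.60 ± 0.27 for Smoc2 up to 4.76 for Ccl11, which had 1123 CPM in the selected cells and 47.2 CPM in the other fibroblasts. Among genes outside the rule, Adh1, an alcohol dehydrogenase that oxidizes retinol, had the highest ratio at 3.63 ± 0.72 (SD, n = 12), with 144 CPM against 11.6 CPM. Ms4a4d, a four-pass membrane protein, followed at 3.05 ± 0.62, Fmo2, a flavin monooxygenase, at 2.98 ± 1.11 and Abca8b, a lipid transporter next to Abca8a in the genome, at 2.86 ± 0.89. Reads of Abca8a and Abca8b, which are close relatives, may be hard to assign, and the other sources used here do not say how such reads were counted.

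Secreted proteins among the 15 highest ratios included Apod, a lipid-carrying apolipoprotein, and the chemokine Cxcl14. Apod had 4448 CPM in the selected cells against 1127 CPM, a log2 ratio of 2.09 ± 0.75, and Cxcl14 had 3621 CPM against 718 CPM, a ratio of 2.47 ± 0.61. Inmt, an N-methyltransferase, stood at 2.61 ± 1.25, Lpl, the lipoprotein lipase, at 2.37 ± 0.60, and Entpd2, an enzyme that splits extracellular ATP, at 2.23 ± 0.30. Scn7a, a sodium channel, reached 2.57 ± 0.43, and G0s2, an inhibitor of fat breakdown, Podn, a small leucine-rich proteoglycan, Lama2, a laminin chain, Akap12, a kinase anchor, and Bmp5, a bone morphogenetic protein, completed the 15 highest with ratios of 2.16 to 2.67.

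Genes of the basement membrane, the sheet of laminin, collagen IV and nidogen that surrounds vessels, fat and nerve, were higher for 6 of the 11 list members with at least 50 CPM and lower for 0, with a median ratio of 1.05. Beside Lama2 these were Col4a1 (1.73), Col15a1 (1.68), Nid1 (1.64), Col4a2 (1.48) and Lamc1 (1.04). Of 9 retinoid genes, 4 were higher: Aldh1a2 (1.96) and Aldh1a1 (1.79), which make retinoic acid, Rarres2 (1.66), which codes for chemerin, and Rdh10 (1.16). Of 10 complement genes, 3 were higher (C1s1, C1ra and Serping1) and Clu, a complement-binding chaperone, was lower (-2.14). Bmp5, Bmper (2.06) and Gdf10 (1.36) were higher of 8 BMP and GDF genes, and Il6, the inflammatory cytokine, had 396 CPM against 170 CPM (1.14). Of the 7 sublining markers, 2 were higher and 0 lower by the same limit, with a median ratio of 0.83.

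Of 11 genes of glucocorticoid activation and response outside the rule, 0 were past the limit, with a median ratio of 0.27. On the low side, 5 of 7 chondrocyte genes, 6 of 20 myofibroblast and scar genes, 4 of 24 fibrillar collagen genes and 3 of 10 small leucine-rich proteoglycans were lower. Col2a1, the cartilage collagen, had 33.3 CPM in the selected cells and 1063 CPM in the others (-4.90), F13a1, the clotting factor XIII subunit, 1.59 CPM against 86.2 CPM (-4.70), and Spp1, osteopontin, 139 CPM against 1329 CPM (-3.89). The remaining 7 of the 10 lowest were Chad, Hapln1, Cilp2, Mia, Matn3, Acan and Kera, all of cartilage or tendon matrix.

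The other fibroblasts were a mixed group. At least 3 markers of tenocytes, chondrocytes or osteoblasts were found in 6781 of them (43.1%) and in 72 of the selected cells (10.1%). Without such cells among the other fibroblasts, Col2a1, Mia, Matn3, Acan and Kera were no longer lower in the selected cells: their mean log2 ratios were 0.85 ± 1.28, 1.58 ± 0.72, 1.80 ± 1.38, 0.29 ± 1.98 and 0.82 ± 1.81, above 0 in 9, 12, 11, 6 and 8 of 12 libraries. These rest on few UMIs in the selected cells, 9 in all for Matn3. The direction of these 5 genes therefore depended on which fibroblasts the selected cells were set against. Of the rest of the 10 lowest, Hapln1 stood at -0.34 ± 1.27, above 0 in 5 of 12 libraries, in this comparison. Chad was at -1.71, Spp1 at -1.83 and Cilp2 at -1.53, nearer to 0 than before, and F13a1 was at -5.41.

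**Figure D2:**
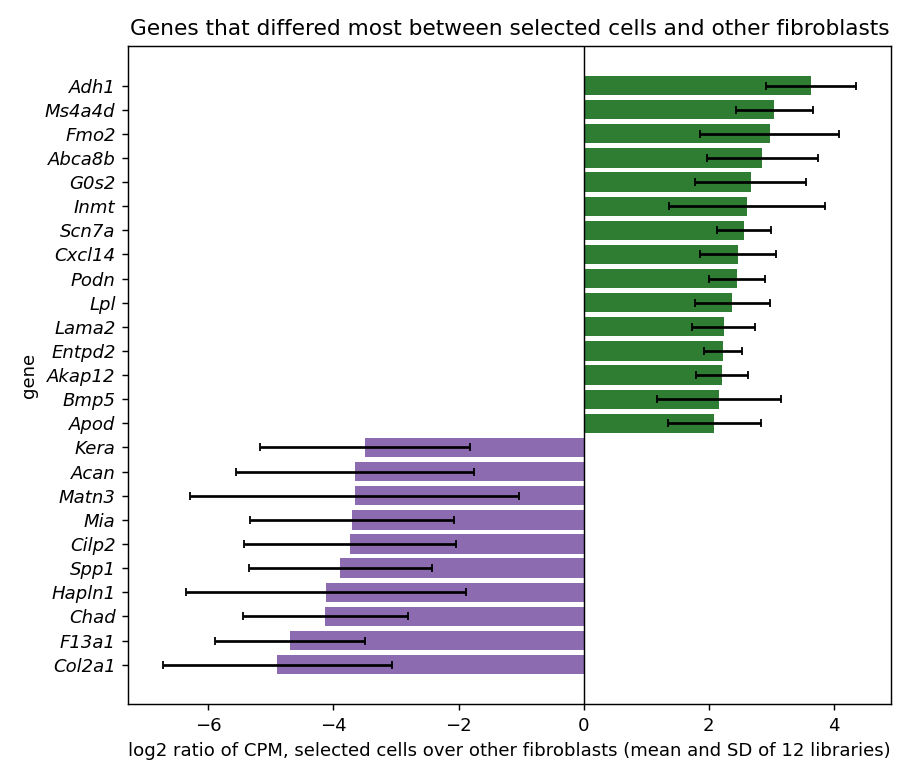
Mean log2 ratio of CPM between the selected cells and the other fibroblasts (horizontal axis) for the named genes outside the rule (vertical axis), with bars for the SD over 12 libraries. Adh1 and Ms4a4d reached 3.63 and 3.05, and Col2a1 was lowest at -4.90.

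Set beside 2 other kinds of fibroblast, the selected cells differed in both directions. Against the Pi16 and Dpp4 fibroblasts, cells of the outer connective tissue, 102 of 2777 genes were higher (3.67%) and 65 lower (2.34%) by the same limit. Cxcl14 had 3621 CPM against 311 CPM (3.85 ± 0.80), Mgp, the matrix Gla protein that blocks calcification, 2612 CPM against 456 CPM (2.52 ± 0.50), Apoe 716 CPM against 109 CPM (2.65) and Sparcl1, a matricellular protein, 375 CPM against 56.2 CPM (3.15). Anxa8 (-2.80), Sbsn (-2.61) and Sema3c (-2.27), a guidance ligand, were lower. Against the lining fibroblasts, 273 of 2954 genes were higher (9.24%) and 204 lower (6.91%): Cxcl14 (7.30), Apod (6.31), Inmt (6.21), Ccl8 (5.84) and Cxcl13 (5.64) were higher, while F13a1 (-8.19), Prg4 (-6.34) and Hbegf (-5.32), a ligand of the EGF receptor, were lower. The groups compared were also made by detected genes, so these values too are a description.

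The share of selected cells among fibroblasts overlapped between the labels. It was 5.44%, 6.21% and 3.39% in rest replicates 1 to 3, 5.72%, 4.25% and 6.80% at peak, 5.85%, 1.96% and 3.44% while resolving, and 3.56%, 1.39% and 5.53% when resolved. Every later label overlapped rest, and the means were 5.01% ± 1.46 at rest, 5.59% ± 1.28 at peak, 3.75% ± 1.96 while resolving and 3.49% ± 2.07 when resolved (SD, n = 3). An exact permutation test of the F statistic over the 4 labels, two-sided, gave F = 1.01 and p = 0.435. The differences from rest were 0.576, -1.26 and -1.52 percentage points with exact permutation p of 0.6, 0.5 and 0.5, in a design that cannot give less than 0.1.

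Single shares rest on 29 to 131 selected cells a library, and their 95% Wilson intervals ran from 0.994% to 1.95% in resolved replicate 2, the lowest, and from 5.76% to 8.01% in peak replicate 3, the highest. These intervals cover counting error only, and a lower share cannot be told apart from less RNA of the selecting genes per cell. By run of suffixes the mean share was 5.67% ± 0.211 for 1 to 3, 4.67% ± 1.38 for 4 to 6, 2.25% ± 1.03 for 7 to 9 and 5.26% ± 1.69 for 10 to 12, with F = 4.80 and an exact permutation p of 0.0395. The runs were taken from earlier results of these data, so this p is not that of a grouping set in advance.

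That difference between runs was not stable. Requiring 5 selecting genes gave F = 3.08 and p = 0.106, and thinning every cell to 2000 UMIs gave F = 2.06 and p = 0.193, both by the exact permutation test. Leaving out any 1 of 9 libraries (rest replicates 1 and 3, peak replicates 1 and 2, resolving replicates 1 and 2 or any resolved replicate) also ended the call, and F then ran from 2.62 to 8.56 over all 12 omissions. Depth of the selected cells moved with the runs: the median per selected cell was 4829 to 5444 UMIs in suffixes 1 to 3, 3099 to 3877 in 4 to 6, 2994 to 3685 in 7 to 9 and 4084.5 to 5490 in 10 to 12. Medians of the other fibroblasts were instead lowest in suffixes 1 to 3. They were 5645 to 5779, 6711.5 to 7330, 5904 to 6397.5 and 5847 to 6291.5 UMIs in the same order. After thinning, the shares were 2.85% to 4.01%, 2.16% to 5.17%, 0.725% to 2.53% and 1.71% to 3.88% in the same order.

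**Figure D3:**
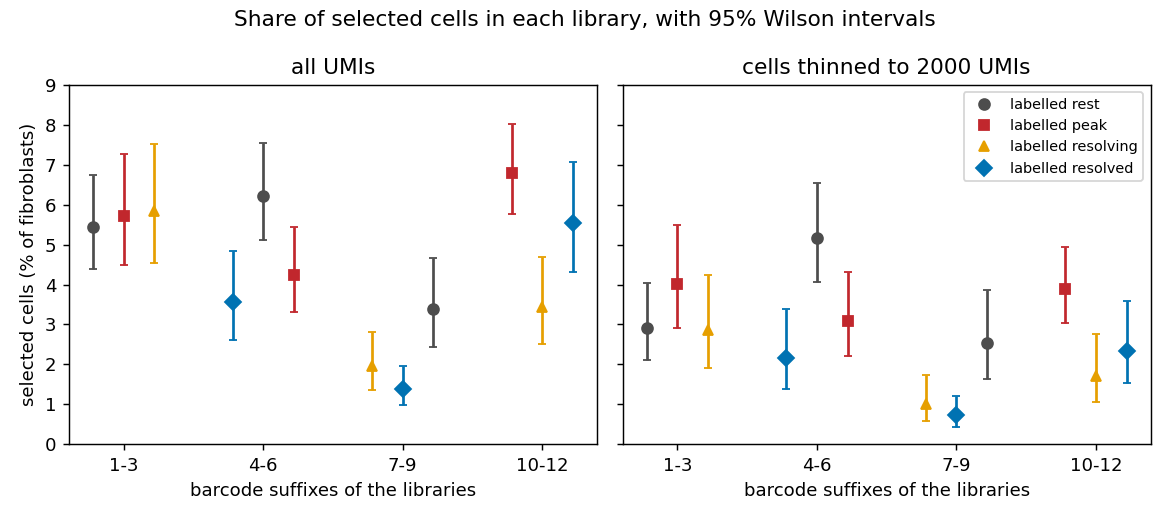
Selected cells as a percent of fibroblasts (vertical axis) in each library, placed by its run of barcode suffixes (horizontal axis) and coloured by label, with 95% Wilson intervals, for all UMIs (left) and for cells thinned to 2000 UMIs (right). The libraries with suffixes 7 to 9 include the lowest shares, 1.39% and 1.96%, and each label spreads across the runs.

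No gene of the selected cells passed the test between labels. UMIs were summed over the selected cells of each library, and edgeR's quasi-likelihood test was run on 4275 genes, with a gene called at a Benjamini-Hochberg adjusted p under 0.05 and a log2 change over 0.5 either way. It called 0 genes for peak, resolving and resolved against rest, and the unadjusted p was under 0.05 for 63, 120 and 98 genes, where 6.60%, 7.32% and 6.32% of genes had groups that did not overlap. DESeq2 also called 0. Without a filter on low counts edgeR called 7 higher and 31 lower at peak, 12 and 15 while resolving and 14 and 13 when resolved, and with the run of suffixes as a block 0 and 0, 1 and 1, and 0 and 1.

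The levels of the 7 selecting genes are given as a description, since cells were kept for having them. Ccl11 ran from 743 to 1439 CPM at rest, 1048 to 1237 CPM at peak, 796 to 1491 CPM while resolving and 623 to 1413 CPM when resolved, all overlapping. Hmcn2 ran from 105 to 145 CPM at rest, 129 to 165 CPM at peak, 64.6 to 83.3 CPM while resolving and 59.5 to 149 CPM when resolved, so that the resolving libraries lay below those of rest and peak. Hsd11b1, Dpep1, Smoc2, Abca8a and Gpc3 overlapped rest under every later label, so only Hmcn2 of the 7 had a label apart from rest. Between resolving and rest, 7.32% of all genes tested had groups that did not overlap.

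The genes with the lowest p are given as values. Chka, a choline kinase, had 46.1, 26.6 and 22.5 CPM at rest and 99.9, 78.9 and 61.5 CPM at peak, which did not overlap (log2 1.21, SE 0.36, adjusted p = 1 by edgeR). Znhit6 had 15.4, 14.5 and 22.5 CPM at rest and 22.6, 50.2 and 43.2 CPM at peak (1.26, SE 0.43). Mapk8, the stress kinase JNK1, had 17.6, 12.1 and 15.0 CPM at rest and 37.0, 40.5 and 47.0 CPM while resolving (1.43, SE 0.40). Ccl2, a monocyte chemokine, had 3968, 2424 and 2624 CPM at rest and 1048, 1700 and 1233 CPM while resolving. For resolved against rest the lowest p belonged to the bone genes Bglap2 and Ibsp, and in resolved replicate 3 a single cell held 306 of 306 UMIs of Bglap2 and 204 of 207 of Ibsp.

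Across the runs of suffixes the selected cells did differ. In the 3 libraries with suffixes 4 to 6, made up of resolved replicate 1, rest replicate 2 and peak replicate 2, 150 genes were higher (3.51% of those tested) and 113 lower (2.64%) than in the 3 with suffixes 1 to 3. Suffixes 7 to 9 had 34 higher (0.795%) and 13 lower (0.304%), and suffixes 10 to 12 had 0 higher and 1 lower (0.0234%), with an unadjusted p under 0.05 for 206 genes and 5 higher and 2 lower by DESeq2. Groups did not overlap for 26.8%, 18.4% and 12% of genes, and the median log2 change of all genes was -0.01, -0.01 and 0.00. Genes of the rule were not left out of these tests. The fibroblast genes Pdpn, among the 150 higher in 4 to 6, and Gsn, among the 13 lower in 7 to 9, also helped choose the cells. The 3 comparisons share the libraries with suffixes 1 to 3, and the runs were a grouping taken from earlier results of these data. Values below are CPM in the order of suffixes, and p-values are edgeR's after adjustment over all genes tested.

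The counts depended on depth, on the rule and on single libraries. After thinning every cell to 2000 UMIs, 13 genes were higher and 11 lower in suffixes 4 to 6 and 3 and 1 in 7 to 9, and with 5 selecting genes required 25 and 17, and 0 and 0. Both alternatives also left fewer selected cells. For suffixes 4 to 6 they were 60 and 50 without resolved replicate 1, 76 and 63 without resolving replicate 1 and 87 and 75 without peak replicate 1, with 85 higher without rest replicate 1 and 72 lower without peak replicate 2. For suffixes 7 to 9 they were 10 and 1 without peak replicate 1, 12 and 2 without rest replicate 1, 17 and 8 without resolving replicate 1 and 15 and 3 without resolving replicate 2, with 4 lower without resolved replicate 2 and 7 without peak replicate 3 or resolved replicate 3. Of the 16 genes of largest change in each comparison, 12 kept their call in every omission for 4 to 6 and 4 did for 7 to 9.

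The 3 secreted proteins Cxcl5, Slpi and Lcn2 were among the 8 largest rises in suffixes 4 to 6. Cxcl5, a chemokine that draws neutrophils, had 0, 3.22 and 0 CPM in suffixes 1 to 3 and 765, 579 and 692 CPM in suffixes 4 to 6, with no overlap. That was 626 UMIs against 1, a ratio of 722 with a counting interval of 129 to 28548 (adjusted p = 0.000324). This interval and the like ones below take each UMI as independent and leave out the spread between cells and libraries. For Cxcl5 a single cell held 73 of 193 UMIs in resolved replicate 1, 67 of 240 in rest replicate 2 and 107 of 193 in peak replicate 2. Slpi, an inhibitor of neutrophil elastase, was at 0 UMIs in suffixes 1 to 3 and at 1305, 162 and 97 CPM in suffixes 4 to 6, at least 163-fold higher against a floor of 3 counts over the group, although 226 of its 329 UMIs in resolved replicate 1 came from 1 cell, and its adjusted p rose to as much as 0.0907 without rest, peak, resolving or resolved replicate 1. Lcn2, lipocalin 2, which withholds iron from bacteria, rose from 15.4, 25.8 and 15.4 CPM to 147, 480 and 176 CPM (log2 3.95, SE 0.51, adjusted p = 0.000324).

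A receptor, lipid-handling proteins and a matrix protein were also among the 8 largest. Il1rl1, the receptor of the alarmin IL-33, rose from 2.20, 0 and 0 CPM to 123, 84.5 and 21.5 CPM, a ratio of UMIs of 83.0 with a counting interval of 14.4 to 3323. A single cell held 11 of 31, 14 of 35 and 3 of 6 of its UMIs in the libraries with suffixes 4 to 6. Il33 itself rose from 39.5, 54.8 and 74.0 CPM to 131, 147 and 169 CPM (adjusted p = 0.0249). Angptl4, an inhibitor of lipoprotein lipase, rose from 17.6, 29.0 and 9.25 CPM to 278, 389 and 326 CPM (4.21, SE 0.56). Tnc, the matrix protein tenascin C, had 33.0, 0 and 12.3 CPM before and 393, 126 and 187 CPM after (3.79, SE 0.67). The lipid carrier Fabp5 (3.97, SE 0.86) and the non-coding RNA H19 (3.80, SE 0.81) rose as well, with a wide spread between libraries: Fabp5 had 285, 26.6 and 100 CPM in suffixes 4 to 6. Fabp5 lost its call without resolved replicate 1 (adjusted p = 0.0696) and H19 without rest replicate 1 (adjusted p = 0.0504).

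Chemokine genes as a list gave 3 of 8 CXC and other members higher and 0 lower (median log2 0.35) and 2 of 5 CC members higher and 0 lower (median 0.82). Cxcl12, which holds leukocytes in tissue, had 956, 1003 and 808 CPM in suffixes 1 to 3 and 1768, 2911 and 2314 CPM in 4 to 6 (1.41, SE 0.23, adjusted p = 0.0018). Cxcl14 had 2500, 3527 and 4129 CPM and then 5004, 6177 and 6378 CPM (0.86, SE 0.25, adjusted p = 0.0469). Of the CC chemokines Ccl7, which attracts monocytes, rose from 1997, 2170 and 965 CPM to 4322, 2914 and 4057 CPM (1.19, SE 0.33, adjusted p = 0.0376). Ccl11, which helped choose the cells, had 743, 1048 and 959 CPM and then 623, 1439 and 1187 CPM, so its groups overlapped. Of the other selecting genes Abca8a and Gpc3 did not overlap, with 244 to 345 CPM against 119 to 196 CPM and 342 to 382 CPM against 147 to 275 CPM. Groups did not overlap for 26.8% of all genes in this comparison. Neither Abca8a nor Gpc3 was called, and since cells were kept for carrying these genes the values are a description.

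Some collagen genes passed the test in suffixes 4 to 6 and in 7 to 9. Of 22 fibrillar collagen and cross-linking genes, 8 were higher and 1 lower in 4 to 6 (median 0.67) and 7 higher and 1 lower in 7 to 9 (median 0.61), against medians of all genes at -0.01. Col1a1, the main chain of collagen I, had 3726, 2866 and 3565 CPM in suffixes 1 to 3, 11436, 5951 and 5672 CPM in 4 to 6, 11828, 9914 and 5698 CPM in 7 to 9, and 2452, 4233 and 4285 CPM in 10 to 12. Its log2 change was 1.24 (SE 0.30, adjusted p = 0.0183) in 4 to 6 and 1.48 (SE 0.30, adjusted p = 0.0251) in 7 to 9. Lox, which cross-links collagen, rose from 176, 177 and 120 CPM to 781, 480 and 717 CPM in 4 to 6 (2.11, SE 0.26, adjusted p = 0.000324), and P4ha3, a prolyl hydroxylase of collagen, rose by 2.97 and 3.03 in the 2 runs.

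Of 19 myofibroblast and scar genes, 6 were higher and 0 lower in suffixes 4 to 6 (median 0.91) and 4 higher and 0 lower in 7 to 9 (median 0.73). Cthrc1, a secreted collagen-associated protein, had 83.5, 29.0 and 123 CPM in suffixes 1 to 3, and 587, 809 and 742 CPM in 7 to 9 (3.20, SE 0.52, adjusted p = 0.00683). Postn, periostin, rose by 2.31 and Wisp1, a matricellular protein, by 3.69 in suffixes 4 to 6. Timp1, the inhibitor of matrix metalloproteinases, had 215, 145 and 151 CPM and then 2601, 1458 and 2271 CPM (3.67, SE 0.51, adjusted p = 0.000491), with 343 of 656 UMIs of resolved replicate 1 in 1 cell. Elastic fibre genes went both ways, with 4 of 15 higher and 1 lower in 4 to 6.

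Of 11 glycolysis genes, 5 were higher and 0 lower in suffixes 4 to 6, with a median of 0.87, and in suffixes 7 to 9 0 of 11 passed in either direction (median 0.37). Gapdh had 556, 493 and 472 CPM in suffixes 1 to 3 and 1602, 814 and 1008 CPM in 4 to 6 (1.22, SE 0.26, adjusted p = 0.00975). Eno1 rose by 1.22, Pkm by 0.99, Ldha, the lactate dehydrogenase, by 0.84 and Slc16a3, a lactate exporter, by 2.83. Whether the 2 runs differed from each other in this list was not tested.

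The genes that fell in suffixes 4 to 6 included several that mark sublining cells. Of 7 sublining markers, 3 were lower and 1 higher. Cd34, a sialomucin of stromal progenitors and vessels, had 749, 1051 and 1129 CPM in suffixes 1 to 3 and 246, 430 and 413 CPM in 4 to 6 (-1.35, SE 0.27, adjusted p = 0.00681), and Col15a1 fell by 1.42 and Clec3b by 0.86 on the log2 scale. Sfrp2, a secreted Wnt modulator and the marker that rose, had 431, 96.7 and 108 CPM and then 4163, 1284 and 545 CPM (3.25, SE 0.78, adjusted p = 0.0175), while another Wnt modulator, Dkk2, fell by 1.60 on the log2 scale.

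Igfbp6, which binds IGF-2, had 2676, 2940 and 2769 CPM in suffixes 1 to 3 and 654, 1021 and 1141 CPM in 4 to 6 (-1.50, SE 0.21, adjusted p = 0.000491). Igfbp4, another IGF-binding protein, moved the other way, from 740, 919 and 897 CPM to 2942, 2880 and 2246 CPM (1.73, SE 0.28, adjusted p = 0.0018), and to 4494, 2376 and 1665 CPM in suffixes 7 to 9. Both genes kept the 3 libraries of suffixes 4 to 6 apart from the 3 of suffixes 1 to 3. Tppp3, a tubulin-binding protein of tendon sheath and other stromal cells, fell from 1235, 925 and 879 CPM to 174, 198 and 240 CPM (-2.24, SE 0.26, adjusted p = 0.000324), Cpe, a carboxypeptidase, from 189, 158 and 108 CPM to 11.9, 29.0 and 35.9 CPM (-2.45, SE 0.32) and Fhl1, a LIM protein, from 321, 297 and 450 CPM to 63.4, 74.8 and 86.1 CPM (-2.17, adjusted p = 0.000433). Krtdap, Chad, Engase, Trim47 and Nrep completed the 8 largest falls, from -4.38 for Krtdap to -2.13 for Nrep. In Krtdap, 69 of 104 UMIs of peak replicate 1 and 67 of 107 of resolving replicate 1 lay in 1 cell each.

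Glucocorticoid genes were followed because Hsd11b1 was a selecting gene. Of 13, 1 was higher and 2 lower in suffixes 4 to 6. Tsc22d3, the glucocorticoid-induced leucine zipper, had 470, 484 and 589 CPM in suffixes 1 to 3, 147, 251 and 230 CPM in 4 to 6 and 216, 222 and 457 CPM in 7 to 9, with an adjusted p of 0.0116 in 4 to 6. Nr3c1, the glucocorticoid receptor, fell by 0.90 on the log2 scale (adjusted p = 0.0492), and the member that rose was Lcn2. Hsd11b1 had 182, 309 and 274 CPM in suffixes 1 to 3 and 210, 285 and 190 CPM in 4 to 6, which overlapped.

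In suffixes 7 to 9 the largest rises included Cxcl5, Angptl4 and Tnc again. Cxcl5 had 762, 136 and 15.0 CPM there, so that 1 library was far lower, with a ratio of UMIs of 347 and a counting interval of 61.1 to 13790, and Angptl4 627, 208 and 105 CPM. Crabp2, a retinoic acid-binding protein, had 24.2, 32.2 and 24.7 CPM in suffixes 1 to 3 and 371, 71.6 and 75.0 CPM in 7 to 9 (2.75, SE 0.57, adjusted p = 0.0279). Cxcl5, Angptl4, Cthrc1 and Uap1 kept their calls with any 1 library left out, while Tnc lost its call without peak replicate 1, resolving replicate 1 or resolving replicate 2 (adjusted p up to 0.121), P4ha3 without rest replicate 1, peak replicate 1 or resolving replicate 2 (up to 0.106), and Crabp2 without those 3 or resolving replicate 1 (up to 0.266). On the low side, Fmo2 fell from 116, 155 and 89.4 CPM to 6.75, 14.3 and 37.5 CPM (-2.60, SE 0.57, adjusted p = 0.0343), Uap1, which makes a sugar donor of hyaluronan, from 657, 799 and 558 CPM to 142, 265 and 240 CPM (-1.62, adjusted p = 0.00468) and Myoc, myocilin, from 1857, 2460 and 2205 CPM to 870, 723 and 1020 CPM (-1.29, SE 0.23, adjusted p = 0.0134). Fmo2 lost its call without rest replicate 1, peak replicate 1, resolving replicate 2 or resolved replicate 2 (adjusted p up to 0.144), and Myoc without peak replicate 1 (0.0664). In suffixes 10 to 12 the 1 gene called was Dnajb1, a heat shock chaperone, with 2942, 2895 and 2038 CPM before and 1115, 810 and 696 CPM after (-1.51, SE 0.23, adjusted p = 0.0156), a call lost without peak replicate 1, resolving replicate 3 or resolved replicate 3 (up to 0.250).

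**Figure D4:**
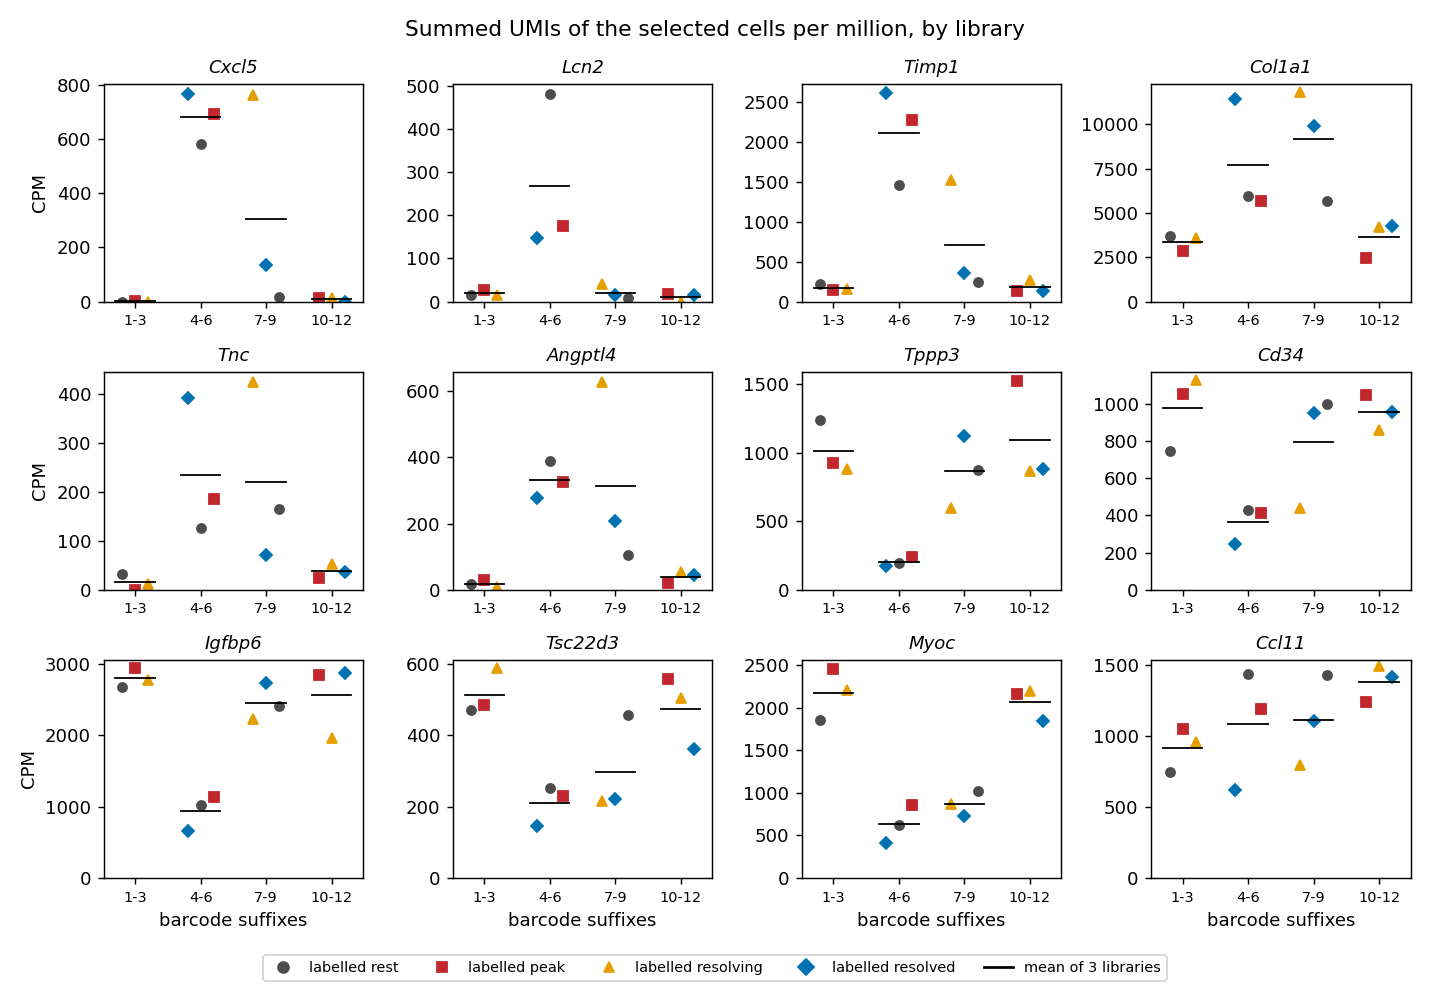
Summed UMIs of the selected cells as CPM (vertical axes, from 0) for 12 genes, with each library placed by its run of barcode suffixes (horizontal axes) and coloured by label, and a line at the mean of 3 libraries. Cxcl5, Lcn2 and Timp1 are high in suffixes 4 to 6, Tppp3, Cd34 and Igfbp6 are low there, and Ccl11 overlaps between the runs.

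**Figure D5:**
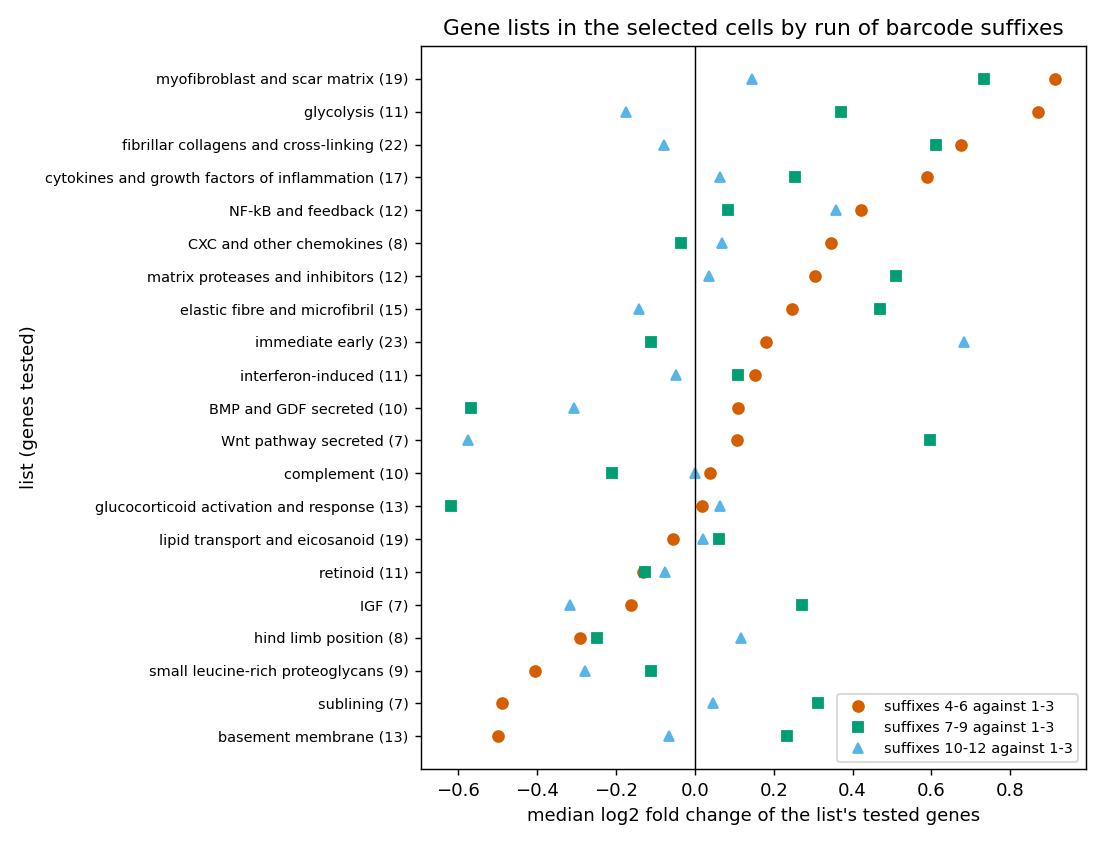
Median log2 fold change of the tested genes of each list (horizontal axis) in the selected cells, for suffixes 4 to 6, 7 to 9 and 10 to 12 against 1 to 3, with the number of tested genes beside each list (vertical axis). Myofibroblast, glycolysis and fibrillar collagen lists have medians of 0.91, 0.87 and 0.67 in suffixes 4 to 6, and the all-gene median is -0.01.

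Markers of other cell types and of blood were measured beside these results, and their part in them was not tested. Immune markers summed to 0 to 14.3 CPM in the selected cells with 3 of 7 at 0 UMIs, endothelial markers to 0 to 52.4 CPM and perivascular markers to 0 to 67.4 CPM. Erythroid genes summed to 166 to 246 CPM in suffixes 1 to 3, 391 to 678 CPM in 4 to 6, 225 to 533 CPM in 7 to 9 and 340 to 547 CPM in 10 to 12, and 2 of the 4 tested, Hbb-bs and Hba-a1, passed the test as higher in 4 to 6. Cycling genes summed to 0 to 8.79 CPM in suffixes 1 to 3, 53.1 to 219 CPM in 4 to 6 and 28.6 to 442 CPM in 7 to 9. Chondrocyte genes summed to 315 to 2193 CPM and osteoblast genes to 15.0 to 1403 CPM over the 12 libraries.

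Single cells weighed on some genes. For the genes higher in suffixes 4 to 6, the cell with the most UMIs held a median of 7.94% of a gene's UMIs, and in 7 of 150 genes at least 25%. An alternative added once the data had been seen left out each gene's highest cell in each library. It called 137 genes higher and 100 lower in 4 to 6, and 34 higher and 8 lower in 7 to 9, and Chad lost its call (log2 -2.82 against -3.23 before, adjusted p = 0.0981). Chad lost it too without cells with 2 markers of another type (-3.09, adjusted p = 0.0687), with the replicate block (-3.99, adjusted p = 0.227) and without rest replicate 1, rest replicate 2, peak replicate 2 or resolved replicate 1 (adjusted p up to 0.261).

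Among the genes higher in suffixes 4 to 6, 12 of 110 with a promoter in the table (10.9%) held TATAAA, as Tnc does, and so did 13 of 81 lower genes, against 7.26% of the 3276 promoters of all tested genes. For AGAACA the counts were 11 of 110, 12 of 81 and 315 of 3276. TTCNNNGAA was held by 4 of 110, 7 of 81 and 188 of 3276 promoters, and TGANTCA by 4 of 110, 5 of 81 and 139 of 3276. No test was made of these shares.

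The change between runs was not the same in the selected cells and in the other fibroblasts for some genes. An edgeR test of the interaction between cell group and run, with the library as a block and the 20 genes of the rule left out, covered 12215 genes. The log2 change was more positive in the selected cells than in the other fibroblasts for 124 genes (1.02%) and more negative for 35 (0.287%) in suffixes 4 to 6, 44 (0.360%) and 25 (0.205%) in 7 to 9, and 8 (0.0655%) and 17 (0.139%) in 10 to 12. Lamb1, a laminin chain of the basement membrane, had 64.6 CPM in suffixes 1 to 3 and 80.8 CPM in 4 to 6 in the selected cells, and 13.3 CPM and 88.1 CPM in the other fibroblasts (difference of log2 changes -2.27, SE 0.32, adjusted p = 3.00e-06). Col5a3, a collagen V chain, had 54.8 and 88.4 CPM in the selected cells and 21.6 and 157 CPM in the others (-2.07, SE 0.30, adjusted p = 6.46e-06). For both genes the selected cells started above the other fibroblasts in suffixes 1 to 3 and the difference of changes held without cells with skeletal markers among the other fibroblasts (-1.89 and -2.01). With 1 library left out, the 124 fell to 78 without rest replicate 1 and to 74 without rest replicate 2.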

How the data were processed

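Per the labels and the study's methods, the authors aligned the reads to mm10 with Cell Ranger and deposited 1 matrix per library of UMI counts, whole-number molecule counts per gene and cell with 27998 gene identifiers. The median per deposited cell was 5358 UMIs in every library, which the sources used here do not explain. Whether depth had been made equal between libraries before deposit was not tested. How reads shared by related genes were counted is not given in the sources used here. The selected cells, gene lists, runs of suffixes and tests were chosen with earlier results of these data known.

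From the counts, cells were chosen by detected genes, UMIs were summed per library and kind of cell, and sums were compared with edgeR 4.0.16 in R 4.3.3 (quasi-likelihood test, TMM, filterByExpr, all 12 libraries in 1 fit, Benjamini-Hochberg adjustment). DESeq2 1.42.0 was an alternative. CPM are shares of the library's selected UMIs, scaled to 1e+06. Shares were compared by exact permutation tests in Python 3.11.15 with scipy 1.17.1. Levels were not compared between genes, since 3′ counts are not per length. Levels of 37 gene lists (538 genes) were described by counts and medians. Of the listed genes, C4a, C5, Cebpd and Cxcl11 were not matched, and 4 were matched by older symbols. No doublet caller was run, and selected cells without markers of other types were an alternative. Mitochondrial RNA took a median of 1.74% to 2.54% of the UMIs of selected cells.

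Genes were named by a rule on size: all genes of the rule that chose the cells, the 15 highest and 10 lowest mean ratios against other fibroblasts with at least 50 CPM, up to 8 rises and 8 falls of each run comparison, largest first, past the threshold, without overlap and with at least 50 CPM, the 2 lowest p-values in each label comparison, the 3 largest interactions each way, and members of lists by size of change. Numbered gene models were left out. Genes named against the Pi16 and lining fibroblasts, and single list members given beside a count, were taken from the largest ratios after their values were seen.

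On simulated counts with 200 changed genes, the test of suffixes 4 to 6 recovered 47.0%, 96.5% and 100% of genes changed by 1, 2 and 3 on the log2 scale, that of peak against rest 0%, 92.5% and 100%, and the interaction 32.0%, 96.5% and 100%, with 7.87% to 9.81% of the interaction's calls false. Replicate numbers did not pair the libraries: over 18 pairs with the same number, deviations from the group means correlated from -0.285 to 0.366. Alternatives covered the rule's limits, thinning, scaling, filters, blocks, the tool and each library left out.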

Additional observations from a re-analysis of the deposited data

Results flagged for a closer look

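Each value here is the difference of log2 changes between the selected cells and the other fibroblasts, against suffixes 1 to 3, and each was singled out because the interaction test (edgeR, adjusted over 12215 genes) called it. The causes were not tested.

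In suffixes 4 to 6 the difference was 5.31 for Matn3, a cartilage matrilin (SE 1.30, adjusted p = 0.0266), 4.94 for Ostn, osteocrin (SE 1.03, adjusted p = 0.00281) and 4.68 for Fxyd2, a sodium pump modulator (SE 0.87, adjusted p = 0.000465). Matn3 had 563 CPM in the other fibroblasts in suffixes 1 to 3 and 26.1 CPM in 4 to 6, while the selected cells had 1.81 and 3.32 CPM. Those were at most 1 UMI a library, and at most 2 in suffixes 7 to 9, too few to read a change of Matn3 in the selected cells. Fxyd2 had 323 and 25.7 CPM in the others and 4.55 and 8.90 CPM in the selected cells. For Ostn the others went from 411 to 70.8 CPM. The selected cells had 4.39, 6.45 and 12.3 CPM in suffixes 1 to 3 and 7.93, 4.83 and 100 CPM in 4 to 6. Their higher mean in 4 to 6, 37.7 against 7.73 CPM, came from peak replicate 2. The difference was -5.13 for Lyz2, lysozyme, -2.27 for Lamb1 and -2.07 for Col5a3.

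In suffixes 7 to 9 it was 6.04 for Fxyd2, 5.50 for Matn3 and 5.44 for Ostn, and -5.91 for Lyz2, -3.14 for Bok, a BCL-2 family member, and -2.17 for Mmp3, stromelysin. In suffixes 10 to 12 it was 3.82 for Mmp13, a collagenase, 2.80 for Pth1r, the parathyroid hormone receptor, and 2.66 for Ppa1, a pyrophosphatase, and -7.92 for Saa3, a serum amyloid, -6.92 for Lyz2 and -5.37 for Cytl1, a cartilage cytokine.

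Several rest on 1 cell. A single selected cell held 121 of 134 UMIs of Lyz2 in rest replicate 1, 209 of 209 of Saa3 in resolving replicate 1, 44 of 45 of Cytl1 in rest replicate 1, 107 of 107 of Mmp13 in resolved replicate 3, and 28 of 28, 26 of 26 and 36 of 37 of Ostn in peak replicate 2, resolved replicate 2 and resolving replicate 3. With cells with at least 3 skeletal markers removed from the other fibroblasts, Fxyd2, Mmp3, Mmp13, Pth1r and Saa3 lost their calls, Ostn lost it in suffixes 7 to 9 (adjusted p = 0.103), and Ppa1 turned to -0.36, while Lamb1, Col5a3, Lyz2, Bok and Cytl1 kept theirs. With 1 library left out, Lyz2 lost its 3 calls without rest replicate 1 (adjusted p 0.911, 0.899 and 1), Ostn its 2 without peak replicate 2 (0.849) and resolved replicate 2 (0.952), as it also did with DESeq2 (0.496 and 0.979) and without the library block (0.293 and 0.414), Fxyd2 in 7 to 9 without resolving replicate 2 (0.211), Bok without resolved replicate 2 (0.0527), and Mmp13 (0.722) and Saa3 (0.328) without resolved replicate 3. Mmp3 lost its call in 3 omissions, those of rest replicate 3, resolving replicate 1 and resolved replicate 2 (up to 0.0847). Matn3 lost it in 5 omissions for 4 to 6 (rest replicates 1 and 2, peak replicate 2, resolving replicate 1 and resolved replicate 1, up to 0.225) and in 4 for 7 to 9 (rest replicate 1, resolving replicates 1 and 2 and resolved replicate 2, up to 0.546). Lamb1, Col5a3, Pth1r, Ppa1 and Cytl1 kept their calls in every omission. For Cytl1, however, 1 cell held 44 of 45 UMIs in rest replicate 1 and 1 cell held 16 of 17 in resolving replicate 1. Leaving out 1 library removed at most 1 of these cells.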

How the results depend on the processing

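The direction of the share against rest at peak turned to -0.314 percentage points with at most 1 excluded gene allowed. Between runs F fell to 2.37 there, to 3.08 with 5 selecting genes, to 2.06 after thinning and to 4.25 as a share of all cells. By label, testing without a filter on low counts called 7 higher and 31 lower at peak, 12 and 15 while resolving and 14 and 13 when resolved, and the run as a block gave 1 and 1 while resolving and 1 lower when resolved.

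For suffixes 4 to 6, the higher and lower counts were 952 and 941 with 3 selecting genes, 25 and 17 with 5, 85 and 70 with at most 1 excluded gene, 13 and 11 after thinning, 90 and 66 with the label as a block, and 253 higher without a filter. For 7 to 9 they were 239 and 89 with 3 selecting genes, 0 and 0 with 5, 3 and 1 after thinning, 15 and 1 with the label block, 19 and 6 from 6 libraries alone and 96 and 76 without a filter, with 18 higher under at most 1 excluded gene and 8 lower without each gene's highest cell. For 10 to 12 they were 5 and 2 with DESeq2, 34 and 25 without a filter, 1 and 0 with 5 selecting genes, 1 higher without the highest cells and 0 lower with 3 selecting genes or the label block. Replicate numbers, which partly follow the runs, were not used to pair libraries in the main tests. The fit with them as a block called 89 and 41 for 4 to 6 and 0 lower for 10 to 12.

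For the interaction, 4 to 6 had 78 higher with DESeq2 or without skeletal cells, 59 lower without a filter, and 24 and 6 without the library block. The counts for 7 to 9 were 23 and 7 with DESeq2, 7 and 9 without skeletal cells, 68 and 43 without a filter and 1 and 2 without the library block. The counts for 10 to 12 were 2 and 4, 0 and 6, 26 and 45, and 1 and 0 in the same order, and 5 and 11 with RLE scaling. Against other fibroblasts, 141 and 539 genes passed with the added count scaled to depth, 1839 and 62 without skeletal cells, 418 and 56 with equal UMIs and 100 and 55 at 50 CPM or more. Without skeletal cells the ratios of Col2a1 (0.85), Mia (1.58), Matn3 (1.80), Acan (0.29) and Kera (0.82) and the interaction of Ppa1 (-0.36) reversed, and Ostn in 7 to 9 ran from -5.53 (without resolved replicate 2) to 6.21 (without resolving replicate 2).

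Leaving out 1 library at a time, F between labels ran from 0.570 to 1.86 and between runs from 2.62 to 8.56, and the differences from rest from -0.237 to 1.25 at peak, -2.31 to -0.367 while resolving and -2.54 to -0.468 when resolved. The peak difference turned to -0.237 without rest replicate 3 and -0.0285 without peak replicate 3. Counts ran from 2870 to 3257 and 104 to 123 against other fibroblasts, 0 to 2 higher for resolved against rest, 60 to 169 and 50 to 127 for 4 to 6, 10 to 51 and 1 to 16 for 7 to 9 and 0 to 1 and 0 to 2 for 10 to 12. Interaction counts ran from 74 to 155 and 25 to 48 for 4 to 6, from 24 (without resolved replicate 2) to 62 and from 10 (without rest replicate 3) to 43 for 7 to 9, and from 9 to 21 and 14 to 41 for 10 to 12. For 7 to 9 the lower count was also 11 without resolved replicate 2, 38 without peak replicate 3 or resolving replicate 1 and 43 without resolving replicate 2. For 10 to 12 the higher count was 15 to 17 without rest replicate 2, peak replicate 2, resolving replicates 1 or 2 or resolved replicates 1 or 3, and the counts were 21 and 41 without peak replicate 3, with 27 and 26 lower without resolving replicates 1 and 2. The causes of these changes were not tested. Over all alternatives and omissions, the named genes of the run comparisons kept their call in 665 cases and lost it in 149. A case is 1 gene of 1 run comparison under 1 setting, so each gene recurs in many cases. In simulated data at this depth a change of 1 on the log2 scale was often missed. How far the few cells and UMIs per library limited the calls was not tested.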

Other observations

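Other gene lists of the selected cells are given beside all genes tested, of which 3.51% were higher and 2.64% lower in suffixes 4 to 6. Of 11 interferon-induced genes, 1 was higher (Bst2, a tetherin) and 1 lower (Ifi27l2a) in suffixes 4 to 6, with a median log2 change of 0.15. Of 23 immediate early genes, which react within minutes to stress or handling, 1 was higher (Ier3) and 1 lower (Hspa1b), with a median of 0.18, and in suffixes 10 to 12 the median was 0.68 with 20 of 23 changes above 0 and 0 called, against a median of 0.00 over all genes. Retinoid genes gave 0 of 11 in either direction in suffixes 4 to 6. Of 8 genes of hind-limb position, 1 was lower (Hoxc10).

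Lipid genes of the selected cells went both ways in suffixes 4 to 6, with 2 of 19 higher (Fabp5 and Lrp1) and 2 lower. Apoe, an apolipoprotein, had 560, 799 and 611 CPM in suffixes 1 to 3 and 246, 362 and 176 CPM in 4 to 6 (-1.24, edgeR adjusted p = 0.0377), and Abca8b had 68.1, 58.0 and 52.4 CPM and then 7.93, 21.7 and 28.7 CPM. In suffixes 10 to 12 Apoe had 1033, 1850 and 1082 CPM.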
